A study of Mus musculus with 6 samples.

Results

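Ly6a, Il1rn, Il33, Msln, Ecm1 and Basp1 were followed across the nuclei of mouse intestinal organoids. They are genes of the fetal and regenerative epithelium that encode surface, secreted or membrane-linked proteins, and were taken by name. They were chosen with earlier results of these data known. All 6 were among the 31319 genes of the count matrices, and all 6 passed the filter on low counts. The organoids came from the jejunum of C57BL/6 mice aged 8 to 12 weeks, were started from freshly passaged crypts, and were kept in medium conditioned by quiescent fibroblasts (QCM, n = 3 samples) or by senescent fibroblasts (SCM, n = 3 samples). The fibroblasts were mouse embryonic fibroblasts, made quiescent by serum deprivation or senescent by X-rays or doxorubicin, and the labels do not say which agent was used for these samples. RNA was counted in 38154 single nuclei as unique molecular identifiers (UMIs), and the authors placed each nucleus in a numbered cluster from 0 to 14. The comparison asks what factors released by senescent cells do to gene expression in this epithelium.

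The adult intestinal epithelium is renewed from crypt base stem cells, whereas the epithelium of the fetus grows as a sheet or sphere without that hierarchy. After injury, and in organoids that grow as cysts, part of the adult epithelium is known to take up fetal genes again, and YAP, a co-activator that binds DNA through TEAD factors, is known to take part. Ly6a encodes Sca-1, a surface protein held by a lipid anchor that is the usual marker of such cells. Msln encodes mesothelin, another lipid-anchored surface protein, best known from the mesothelium. Il1rn encodes the interleukin-1 receptor antagonist, which occupies the interleukin-1 receptor without signalling, and Il33 encodes a nuclear alarmin of the same cytokine family that signals through ST2 when released. Ecm1 encodes a secreted glycoprotein of the extracellular matrix, and Basp1 a lipid-modified protein of the inner face of the plasma membrane and of the nucleus.

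In the GENCODE annotation of GRCm38, the build of the deposited counts (mm10), all 6 are protein-coding genes. Ly6a (ENSMUSG00000075602) lies on chromosome 15 from 74994877 to 74998031 on the minus strand with 4 merged exons, and Basp1 (ENSMUSG00000045763) lies on the same chromosome and strand from 25363277 to 25413764 with 3. Il1rn (ENSMUSG00000026981) spans 24336853 to 24351494 of chromosome 2 on the plus strand with 6 merged exons, and Il33 (ENSMUSG00000024810) spans 29925114 to 29960718 of chromosome 19 on the plus strand with 10. Msln (ENSMUSG00000063011) lies on chromosome 17 from 25748613 to 25754378 and Ecm1 (ENSMUSG00000028108) on chromosome 3 from 95734147 to 95739569, both on the minus strand, with 15 and 10 merged exons. A microRNA gene, Mir7014, lies inside Ecm1 on the same strand. Of the windows of 50 bases in the last 500 bases of the transcripts, which the 3′ libraries read, 8.13% of those of Ly6a also occurred in other genes (Ly6c1, Ly6c2, Ly6i and I830127L07Rik), so a small part of its reads may have been shared with these relatives. The share was 3.71% in Msln, 0.737% in Ecm1 and 0.278% in Il1rn, and no such window was found in Il33 or Basp1.

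The promoter letters of the members are shown because 2 of the 4 with an entry, Il1rn and Basp1, had higher levels in SCM while the other 2, Il33 and Ecm1, did not. The sequences are from RefSeq (GRCm38.p6), matched by symbol for 4 of the 6 members, and each gives the 250 bases before the most upstream listed start by coordinate, 5′ to 3′ along the gene. They lie at chr2:24336610-24336859 (plus strand, Il1rn), chr19:29924863-29925112 (plus strand, Il33), chr3:95739570-95739819 (minus strand, Ecm1) and chr15:25413765-25414014 (minus strand, Basp1). Capitals mark matches on either strand to the core of TEAD sites, GGAATG, or to the AP-1 site, TGANTCA, which do not overlap here.
Il1rn: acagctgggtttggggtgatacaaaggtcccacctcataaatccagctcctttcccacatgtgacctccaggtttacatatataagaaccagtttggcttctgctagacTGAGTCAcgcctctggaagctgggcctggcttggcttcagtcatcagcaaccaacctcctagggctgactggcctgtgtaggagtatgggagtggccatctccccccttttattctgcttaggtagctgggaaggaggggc
Il33: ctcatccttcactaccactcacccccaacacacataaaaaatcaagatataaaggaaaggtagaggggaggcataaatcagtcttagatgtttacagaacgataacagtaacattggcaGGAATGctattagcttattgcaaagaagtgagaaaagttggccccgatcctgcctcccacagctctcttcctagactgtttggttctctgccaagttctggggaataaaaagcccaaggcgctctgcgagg
Ecm1: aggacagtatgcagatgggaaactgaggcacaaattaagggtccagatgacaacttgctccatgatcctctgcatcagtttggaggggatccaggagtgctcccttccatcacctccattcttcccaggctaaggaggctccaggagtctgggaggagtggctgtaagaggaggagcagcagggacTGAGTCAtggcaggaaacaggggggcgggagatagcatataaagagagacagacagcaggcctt
Basp1: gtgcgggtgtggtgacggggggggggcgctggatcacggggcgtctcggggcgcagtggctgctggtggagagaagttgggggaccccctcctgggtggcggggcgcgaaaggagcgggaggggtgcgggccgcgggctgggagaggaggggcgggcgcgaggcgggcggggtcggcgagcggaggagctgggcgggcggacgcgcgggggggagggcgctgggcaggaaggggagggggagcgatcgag
The AP-1 letters occurred 141 bases before the start of Il1rn and 64 bases before that of Ecm1, and the TEAD letters 131 bases before that of Il33. The Basp1 window, with 78.8% G and C bases, held neither. Further starts are listed for Il1rn and Il33, of which the third of Il1rn held the TEAD letters 24 bases before it and the second of Il33 held them 107 bases before it. Of all 32851 promoters in the table, 12.64% held the TEAD letters and 6.75% the AP-1 letters in these 250 bases. The libraries read 3′ ends and do not tell the starts apart, and the matches did not split the members by their level in SCM.

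The samples differed in size and depth. They held 430 to 10833 nuclei and 4071926 to 41035733 UMIs, with medians of 1578 to 8260 UMIs per nucleus, and SCM replicate 1 was the smallest in nuclei and UMIs. Of its 430 nuclei, 175 (40.7%) carried a barcode also found in QCM replicate 1, against 0 to 36 shared barcodes in the other pairs of libraries. Nuclei of the same barcode were no more alike than other pairings of these libraries (median correlation across genes 0.299 against 0.297), and 22.9% of the pairs were in the same cluster. Both libraries held 48 distinct barcode starts of 6 bases, against at least 959 in the other libraries. Ribosomal protein genes took 14.21%, 4.96% and 10.35% of the UMIs in replicates 1, 2 and 3 of QCM, against 4.22%, 2.64% and 7.30% in SCM. The sum of 8 fibroblast markers was 1.75 to 6.12 counts per 1000000 UMIs (CPM) in QCM and 2.05 to 3.42 CPM in SCM, that of 7 immune markers 2.95 to 6.22 and 3.19 to 4.66 CPM, and that of 4 endothelial markers 2.53 to 6.47 and 2.69 to 3.93 CPM, with no marker of these lists at 0 in all samples. Stem, enterocyte, goblet and Paneth markers were each present in all samples. The sum of Paneth markers was 518 to 2633 CPM in QCM and 335 to 582 CPM in SCM, that of goblet markers 622 to 1322 and 375 to 636 CPM, that of enteroendocrine markers 173 to 328 and 51.6 to 194 CPM, and that of enterocyte markers 1130 to 4964 and 469 to 1754 CPM. The 8 fetal markers other than the members summed to 79.3 to 154 CPM in QCM and 215 to 673 CPM in SCM, without overlap. The part of cell make-up in the levels below was not tested.

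Over all nuclei, Ly6a, Il1rn, Msln and Basp1 had higher levels in all 3 SCM samples than in any QCM sample, and Ecm1 and Il33 did not. This separation held for 4 of the 6 members, against 4.99% of the 19046 genes tested. The members were chosen with earlier results of these data known, so this count is no test of the set. No member was called by the edgeR quasi-likelihood test (adjusted p 0.927 to 0.988 over all genes). That test called 0 of 19046 genes (0%), with 866 (4.55%) at an unadjusted p under 0.05. DESeq2 called 21 genes (0.11%) and limma with voom 0, no member among them. The labels do not say that the samples came from separate mice, so that p-values measure the spread between these samples. In such sums, more nuclei with a transcript and more transcript per nucleus cannot be told apart.

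Ly6a, the surface marker, had 7.04, 6.51 and 7.28 CPM in replicates 1, 2 and 3 of QCM, against 15.5, 31.1 and 15.8 CPM in replicates 1, 2 and 3 of SCM. The QCM samples lay close together, at a mean of 6.94 ± 0.395 CPM (SD, n = 3), and the SCM samples at 20.8 ± 8.91 CPM (SD, n = 3), with SCM replicate 2 far above the other two. Its ratio between SCM and QCM on the log2 scale was 1.41 (SE 0.32), at an unadjusted p of 0.00232 and an adjusted p of 0.927 by edgeR. Higher estimates with an unadjusted p under 0.05 made up 1.46% of all genes tested, and 3 of the 6 members (Ly6a, Il1rn and Basp1). DESeq2 gave Ly6a an adjusted p of 0.0567, which misses the threshold of 0.05.

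Msln had the highest UMI counts of the 6. Its levels were 17.5, 15.98 and 20.5 CPM in the 3 QCM samples, against 23.1, 83.2 and 23.4 CPM in SCM. SCM replicates 1 and 3 were thus just above the QCM range of values, while SCM replicate 2 was several times higher. The log2 ratio was 1.10 (SE 0.49, edgeR unadjusted p 0.0559), and it fell to 0.21 without SCM replicate 2.

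Il1rn, the interleukin-1 antagonist, was at 7.55, 3.09 and 7.58 CPM in QCM, against 8.60, 31.3 and 12.9 CPM in SCM. The lowest SCM sample was close to the highest QCM samples. Its log2 ratio was 1.34 (SE 0.56, edgeR unadjusted p 0.0433), with 0.66 left without SCM replicate 2. Basp1 was a low gene, with 49, 13 and 30 UMIs in QCM, against 11, 172 and 45 UMIs in SCM, which came to 1.19, 0.535 and 1.51 CPM and to 2.70, 8.27 and 1.68 CPM. The log2 ratio of 1.78 (SE 0.68, edgeR unadjusted p 0.0319) was the highest of the members, and SCM replicate 2 again carried much of it. Without this sample the log2 ratio of Basp1 was 0.79, below that of Ly6a at 1.01.

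Ecm1, the matrix glycoprotein, had 3.14, 3.25 and 5.52 CPM in QCM, against 4.17, 5.05 and 3.47 CPM in SCM. The media overlapped, and the log2 ratio was -0.06 (SE 0.34), a difference smaller than its SE. Il33, the alarmin, was near the limit of detection, with 36, 4 and 20 UMIs in QCM, against 1, 16 and 23 UMIs in SCM, or 0.877, 0.165 and 1.00 CPM and 0.246, 0.770 and 0.858 CPM. A difference between the media was not detectable for Il33 at this depth (log2 ratio -0.18, SE 0.74).

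**Figure D1:**
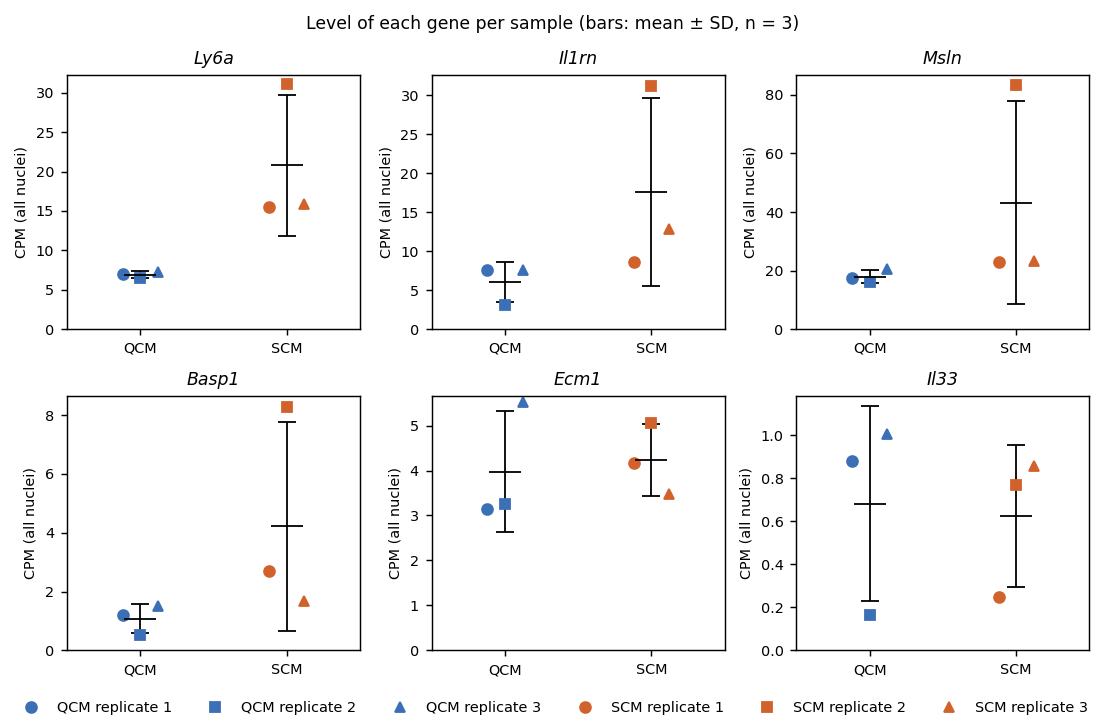
Level of each gene per sample in CPM, summed over all nuclei, for 3 QCM and 3 SCM samples, with a bar for the mean ± SD. Ly6a, Il1rn, Msln and Basp1 show no overlap between the media, with SCM replicate 2 highest for each, while Ecm1 and Il33 overlap.

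The separation between the media rested in part on few nuclei. In SCM replicate 1, cluster 14, a group of very deep nuclei, held 50.8% of the Ly6a, 62.9% of the Il1rn and 62.8% of the Msln UMIs. Without cluster 14 this sample was at 11.2 CPM for Ly6a, still above all QCM samples, but at 4.71 CPM for Il1rn, within the QCM range of 3.11 to 7.93 CPM taken in the same way, and at 12.7 CPM for Msln, below the QCM range of 16.5 to 20.5 CPM. The separation of Il1rn and Msln between the media was therefore lost without these 7 nuclei of SCM replicate 1 and the other nuclei of cluster 14. Single nuclei mattered in both media. In QCM replicate 1, 1 nucleus of cluster 7 held 99 of the 310 Il1rn UMIs. Without the nucleus richest in the member in each sample, Ly6a was at 6.14 to 7.14 CPM in QCM and 12.6 to 29.4 CPM in SCM, still apart, while Il1rn (2.76 to 7.14 and 6.05 to 29.6 CPM), Msln (12.99 to 17.1 and 15.8 to 78.4 CPM) and Basp1 (0.371 to 1.31 and 1.23 to 7.05 CPM) overlapped. The fitted log2 ratios without cluster 14 were 1.29 for Ly6a, 1.23 for Il1rn and 0.96 for Msln. In SCM replicate 2, the deepest 6% of nuclei held 61.0% of the Ly6a, 75.5% of the Il1rn, 76.0% of the Msln and 81.4% of the Basp1 UMIs, and the 3 nuclei richest in Basp1 held 40.7% of it. When the deepest 6% of every sample were left out, the log2 ratio was 0.80 for Ly6a, 0.61 for Il1rn, 0.27 for Msln and 0.81 for Basp1. Leaving out the SCM replicate 1 nuclei with a shared barcode gave 1.47, 1.36, 1.08 and 1.83 in the same order.

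**Figure D2:**
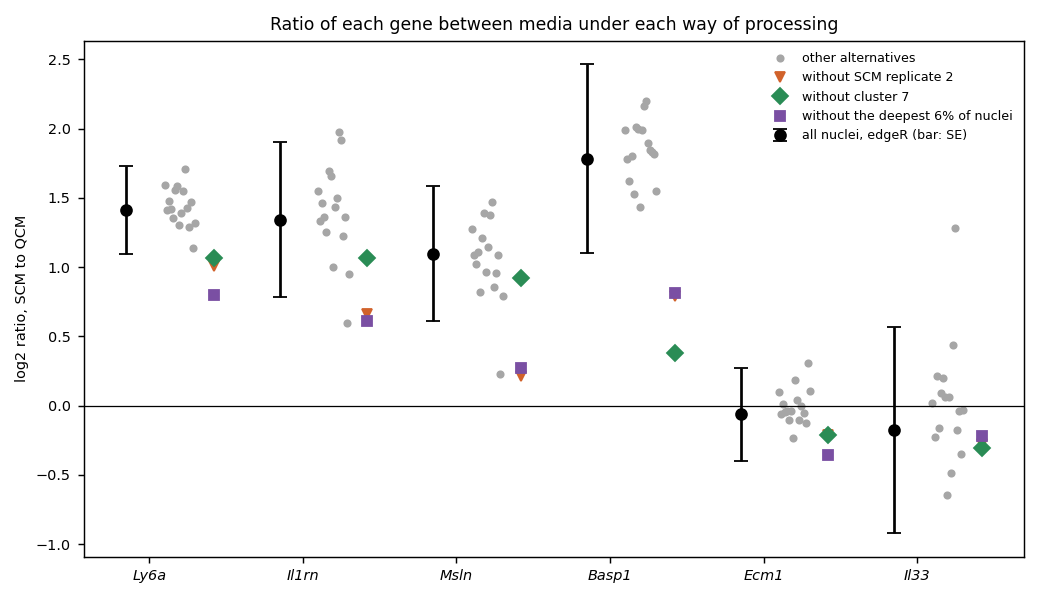
Log2 ratio of SCM to QCM for each gene, with the edgeR estimate over all nuclei and its SE, and the estimate under each alternative. Ly6a, Il1rn, Msln and Basp1 stay above 0 in every alternative run, and Ecm1 and Il33 lie on both sides of 0.

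Across the 15 clusters, Ly6a, Il1rn, Msln and Basp1 were highest in cluster 7 by mean level, as was Ecm1 by a small margin, and for all of these but Il1rn the range over samples overlapped that of the next cluster. Cluster 7 held 1442 nuclei (3.78% of all). Of 8 fetal markers other than the members, Clu, Anxa1, Anxa3 and Krt7 were at least 2-fold higher there than in the other nuclei, and none of the 8 was among its 10 leading genes, which included Fn1, Col4a1, Col4a2 and Sprr2f. Mesothelial markers other than Msln summed to 6.998 CPM in cluster 7, and 1 of 5 (Upk1b) was 2-fold higher there, while the 8 fibroblast markers summed to 1.75 CPM and none was higher. Of the other lists, 2 of 6 goblet markers (Clca1 and Zg16), 1 of 6 tuft markers (Avil) and 1 of 7 immune markers (Csf1r) were also 2-fold higher there, and no stem, enterocyte, Paneth, enteroendocrine or endothelial marker was. The clusters were made by the authors from the same counts, so the levels by cluster are a description and were not tested. Levels are means over the samples with at least 10 nuclei in the cluster.

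Msln had a mean of 254 ± 106 CPM (SD, n = 6) in cluster 7, from 146 to 390 CPM over the samples. Cluster 8, which carried enterocyte markers, came next at 47.7 ± 94.4 CPM (SD, n = 6), and the ranges overlapped because of SCM replicate 2 alone, at 240 CPM from 148 UMIs against 0 to 12.9 CPM in the other samples. Cluster 1 followed at 22.0 ± 15.02 CPM (SD, n = 6), and the remaining clusters ran down to 1.28 CPM in cluster 14 (n = 3), each overlapping the next. That last mean leaves out SCM replicate 1, whose 7 nuclei of cluster 14 were at 45.0 CPM from 59 UMIs. In every sample cluster 7 was the highest cluster for Msln.

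Il1rn had 82.3 ± 32.0 CPM (SD, n = 6) in cluster 7, from 45.6 to 130 CPM, and cluster 13 came next at 14.6 ± 12.9 CPM (SD, n = 4) from 7 UMIs. These 4 samples lay below every cluster 7 value, but SCM replicate 2, left out there for having under 10 nuclei, was at 245 CPM from 3 UMIs. Below cluster 7, the order of clusters 13, 8, 9, 4, 5, 11, 1, 3, 6, 14, 2, 10, 0 and 12 went from 14.6 to 2.24 CPM with overlap at each step. Among clusters of at least 10 nuclei, cluster 7 ranked first in all 6 samples.

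By mean level, Ly6a had the flattest profile of the 4, with 58.4 ± 32.0 CPM (SD, n = 6) in cluster 7 and 19.7 ± 13.9 CPM (SD, n = 6) in cluster 1, a cluster with mature enterocyte and Paneth markers. Cluster 4 was at 14.6 CPM and the other clusters between 10.4 and 1.27 CPM. The ranges of clusters 7 and 1 overlapped across samples, since SCM replicate 2 reached 47.2 CPM in cluster 1 and QCM replicate 1 was at 22.2 CPM in cluster 7, but within every sample cluster 7 was the highest. Pooled over samples, the level in cluster 7 was 7.68 times that of all other nuclei for Ly6a, against 19.1 times for Il1rn, 19.9 times for Msln and 19.5 times for Basp1. SCM replicate 2 gave 375 of the 585 Ly6a, 442 of the 878 Il1rn, 1182 of the 2262 Msln and 139 of the 181 Basp1 UMIs of cluster 7. In QCM replicate 1, Basp1 was flatter than Ly6a, at 1.39 CPM in cluster 7 and 1.19 CPM elsewhere, against 22.2 and 6.49 CPM.

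Basp1 was at 21.7 ± 22.7 CPM (SD, n = 6) in cluster 7, and no other cluster had a mean above 3.15 CPM, though the ranges overlapped. It was highest in cluster 7 in 5 of 6 samples, the exception being QCM replicate 1 with 2 UMIs there. In cluster 12 no Basp1 UMI was found, which allows a level of up to 3.57 CPM. Ecm1 had 9.41 ± 8.42 CPM (SD, n = 6) in cluster 7, 7.95 ± 9.92 CPM (SD, n = 5) in cluster 11, a tuft-like cluster, and 7.72 ± 8.90 CPM (SD, n = 6) in cluster 8, and every step in its order overlapped. Pooled over samples, cluster 11 was the highest for Ecm1 at 8.22 CPM from 12 UMIs, and cluster 7 had 6.76 CPM from 58 UMIs. Il33 was at most 1.49 ± 1.35 CPM (SD, n = 6), in cluster 4, with 0 UMIs in clusters 10 and 13, which allows up to 2.04 and 6.71 CPM.

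**Figure D3:**
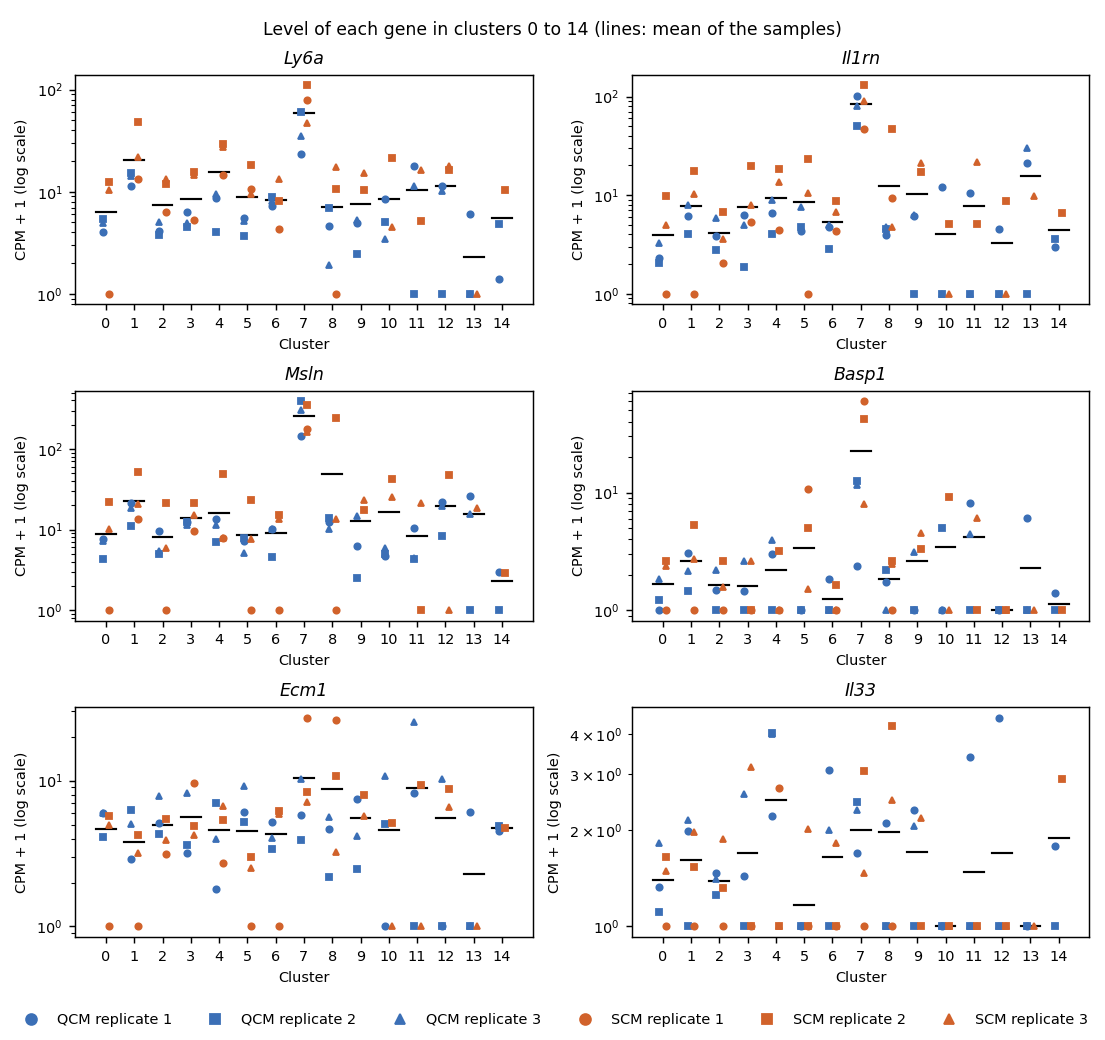
Level of each gene in the 15 clusters (CPM + 1, log scale), with a point per sample of at least 10 nuclei and a line for their mean. Cluster 7 has the highest mean for Ly6a, Il1rn, Msln and Basp1, with points that overlap those of the next cluster for all of these but Il1rn, SCM replicate 2 reaches 240 CPM of Msln in cluster 8, and the points of Ecm1 and Il33 overlap between clusters.

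By the Pearson correlation of log2(CPM + 1) over the 15 clusters, among 9937 or 9938 genes that reached 20 CPM in a cluster, the genes most like Msln were Lgals3 (0.96), Krt19 (0.96) and Ezr (0.96). Those most like Il1rn were Klf6 (0.94), Itpripl2 (0.92) and Anxa10 (0.92), and those most like Ly6a were Timp2 (0.94), Ctsh (0.93) and Sox21 (0.90). Basp1 was most like Sprr2f (0.91), Cldn4 (0.89) and Lmna (0.89). Without cluster 7 the values were 0.90 to 0.92 for the genes like Msln and 0.60 to 0.68 for those like Basp1. For Ecm1 (Plekhf2, Lasp1 and Bicd2, 0.83 to 0.86) and Il33 (Lppos, Sult2b1 and Ipp, 0.72 to 0.76) the likeness rests on few UMIs per cluster. All clusters come from the same 6 libraries, and the clusters of few UMIs enter these values like the others. Among the members, the closest pairs were Il1rn with Basp1 (0.82) and Il1rn with Msln (0.77), which fell to 0.45 and 0.41 without cluster 7.

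Within cluster 7 the members were found mainly in its deepest nuclei. Of the 1442 nuclei, 214 were among the deepest 6% of their sample, at a median of 14000 UMIs, and 1228 were not, at a median of 2107 UMIs. Pooled over samples, the level of Msln was 416 CPM in the deep nuclei and 42.2 CPM in the others, that of Il1rn 151 and 31.6 CPM, that of Ly6a 100 and 21.2 CPM, and that of Basp1 32.8 and 4.02 CPM. SCM replicate 2 held 1162 of the 2115 Msln, 435 of the 768 Il1rn, 359 of the 511 Ly6a and 137 of the 167 Basp1 UMIs of these deep nuclei. In the other clusters, pooled over samples, the deep nuclei were about level with the rest or lower, at 11.7 and 13.8 CPM for Msln, 5.48 and 5.34 CPM for Il1rn, 5.86 and 9.77 CPM for Ly6a and 0.377 and 1.29 CPM for Basp1. The samples differed in this. SCM replicate 1 had 30.5 CPM in the deep and 3.125 CPM in the other nuclei for Msln, 12.0 and 2.08 CPM for Il1rn and 17.0 and 8.85 CPM for Ly6a, and without cluster 14 its deep nuclei were at 2.91 CPM for each, from 2 UMIs. SCM replicate 2 was also higher in the deep nuclei, with 35.8 and 30.15 CPM for Msln and 13.2 and 11.6 CPM for Il1rn. SCM replicate 3 was so for Il1rn alone, with 6.91 and 6.23 CPM. Both Msln and Il1rn were higher in the deep than in the other nuclei of cluster 7 in all 6 samples. Ly6a was so in 5, with 76.9 and 79.0 CPM in SCM replicate 1, and Basp1 in 5, the exception being the same sample with 46.1 and 67.7 CPM from 2 and 15 nuclei.

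Cluster 7 took 3.83%, 2.72% and 3.31% of the nuclei in replicates 1, 2 and 3 of QCM, against 3.95%, 4.06% and 4.84% in SCM, without overlap. SCM replicate 1, with 17 of its 430 nuclei in the cluster, lay just above QCM replicate 1, with 145 of 3791. A difference between the media in these shares was not tested. The levels over all nuclei are sums of UMIs, so the weight of cluster 7 in them follows its UMIs and not these shares of nuclei. That weight was not taken per sample. Without the nuclei of cluster 7, the log2 ratio over the remaining nuclei was 1.06 for Ly6a, 1.07 for Il1rn, 0.92 for Msln and 0.38 for Basp1, none called by edgeR, beside 1.41, 1.34, 1.10 and 1.78 over all nuclei. These remaining nuclei include cluster 14. Without both clusters, the CPM of the media overlapped for Il1rn, Msln and Basp1 (exact permutation p 0.4, 0.7 and 0.6). For Ly6a they did not overlap, at 6.911, 4.996 and 6.21 CPM in replicates 1, 2 and 3 of QCM and 7.285, 15.78 and 13.22 CPM in SCM. The exact permutation p of 0.1 is the smallest that 3 samples against 3 can give. SCM replicate 1 rested on 19 Ly6a UMIs here and lay just above QCM replicate 1. The number of deep nuclei differed between samples. Of the cluster 7 nuclei, 6 of 145, 12 of 216 and 33 of 336 were deep in replicates 1, 2 and 3 of QCM, against 2 of 17, 83 of 204 and 78 of 524 in SCM, that is 4.14%, 5.56% and 9.82% against 11.8%, 40.7% and 14.9%. The SCM samples lay above the QCM samples, SCM replicate 1 with 2 nuclei. Median depth in cluster 7 was 7080, 2186 and 1564 UMIs in QCM, against 3831, 4912 and 2207 UMIs in SCM. Doublets were not called here, and the part of depth or of doublets in these levels was not tested.

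**Figure D4:**
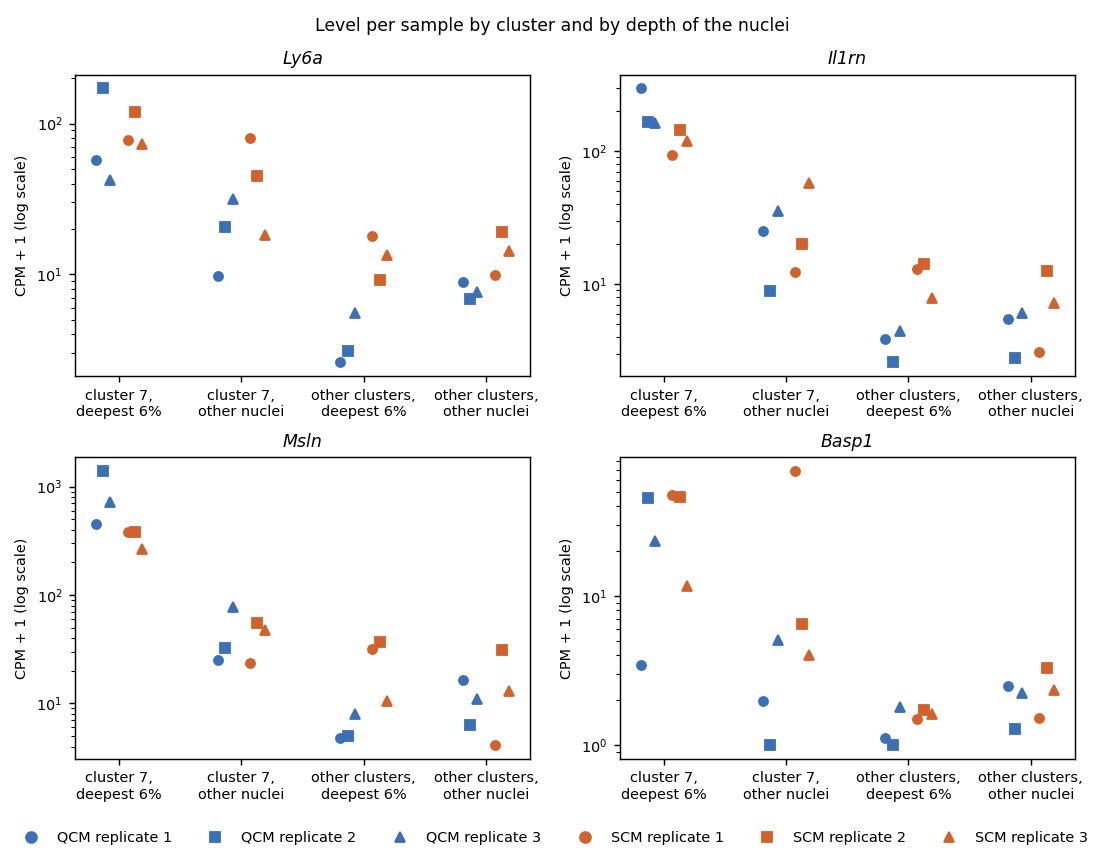
Level of Ly6a, Il1rn, Msln and Basp1 (CPM + 1, log scale) per sample, in the deepest 6% of nuclei of each sample and in the other nuclei, inside and outside cluster 7. The deep nuclei of cluster 7 are highest for Msln and Il1rn in all 6 samples, and the deep nuclei of other clusters lie below them for each gene and sample, though in SCM replicate 1 they are above the remaining nuclei for Ly6a, Il1rn and Msln (Msln 30.5 against 3.125 CPM).

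In cluster 7, Il1rn and Ly6a were found more often in nuclei with Msln than without it, with the nuclei pooled over the 6 samples. Of the 230 nuclei there with a Msln UMI, 50.4% had an Il1rn UMI and 44.8% a Ly6a UMI, against 7.18% and 5.61% of the 1212 nuclei without one. The nuclei with Msln were deeper, with a median of 8371 against 2154 UMIs. With each nucleus thinned to 1000 UMIs, 87 nuclei had a Msln UMI, and 11.5% of them had Il1rn and 9.20% Ly6a, against 4.38% and 2.47% of the others, resting on 10 and 8 nuclei. Before thinning these 87 nuclei were still deeper, with a median of 7626 against 2427 UMIs. Of the 87, 31 were from SCM replicate 2, where the thinned shares of Il1rn (8.0%) and Ly6a (5.0%) were above those of each QCM sample. Pooling samples of unlike shares can raise such values, and values per sample were not taken. Of the 87, 2 had Basp1, 1 had Ecm1 and 0 had Il33. Of all 1442 nuclei, 73.1% had a UMI of none of the 6 members, and 1 nucleus, of 46290 UMIs, had all 6. In the other clusters the thinned values were 1.202% and 1.202% with Msln against 0.602% and 1.05% without it, on 5 nuclei each.

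The share of nuclei with a UMI of each member was set beside that in clusters not known for these genes. After thinning, which left out 10.8% of QCM and 4.99% of SCM nuclei as too shallow, the enteroendocrine-like clusters 9 and 10 had a UMI in 0.998% of nuclei for Ly6a, 0.544% for Il1rn, 1.18% for Msln and 0.181% for each of Basp1 and Ecm1. For Il33 it was 0 of 1102 nuclei, which allows a share of up to 0.272%. In cluster 7 the thinned shares were 2.90% for Ly6a, 4.84% for Il1rn, 6.48% for Msln and 0.670% for Basp1, with exact binomial 95% intervals of 2.07% to 3.95%, 3.75% to 6.13%, 5.22% to 7.93% and 0.307% to 1.27%. Ecm1 was in 0.298% (0.0812% to 0.761%) and Il33 in 0.0745% of the cluster 7 nuclei. The intervals of clusters 9 and 10 for Ly6a, Il1rn, Msln and Basp1 were 0.499% to 1.78%, 0.200% to 1.18%, 0.630% to 2.01% and 0.0220% to 0.654%, and all these intervals, over nuclei pooled from the 6 samples, cover counting error only. Within samples, cluster 7 was above clusters 9 and 10 in 6 of 6 for Il1rn and Msln, in 5 for Ly6a, the exception being QCM replicate 1 with 0.690% and 2.78%, and in 4 for Basp1. SCM replicate 1 enters with 14 and 5 nuclei. Cluster 1 had 1.85% for Ly6a, 0.762% for Il1rn, 1.98% for Msln and 0.352% for Ecm1, and clusters 0, 2, 5, 6 and 8 had estimates below that of clusters 9 and 10 for Ly6a (0.439% to 0.960%), so that no expression above the background is read from them. Median depth was 2042 UMIs in clusters 9 and 10 and 2376 UMIs in cluster 7. The mix of transcripts also differed. Among the UMIs of Ly6a, Msln and Il1rn, Ly6a made up 8.25%, 11.9% and 8.23% in cluster 7 of QCM, against 26.1%, 18.8% and 15.7% in that of SCM. In the other nuclei it made up 27.7%, 42.2% and 30.6% in QCM and 34.9%, 26.4% and 42.5% in SCM, higher than in cluster 7 in each sample. The cluster 7 shares rest in part on single nuclei. In replicates 1, 2 and 3 of QCM, 1 nucleus held 85, 73 and 68 Msln UMIs of the 388, 344 and 316 counted. In replicate 1 it also held 99 of Il1rn. In SCM replicates 2 and 3 such a nucleus held 104 of 1999 and 60 of 632 UMIs, and SCM replicate 1 had 46 UMIs in all.

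Over all nuclei after thinning, Ly6a was found in 0.871%, 0.712% and 0.677% of QCM nuclei and in 1.23%, 2.21% and 1.36% of SCM nuclei of replicates 1, 2 and 3. The media did not overlap, and the means of 0.753% ± 0.103 and 1.60% ± 0.530 (SD, n = 3) differed at a two-sided exact permutation p of 0.1, the smallest that 3 samples against 3 can give. Il1rn followed the same pattern, with 0.448%, 0.269% and 0.569% in QCM and 0.926%, 1.60% and 1.02% in SCM, also at the smallest p. The separation of Il1rn was lost when nuclei were thinned to 500 or 2000 UMIs (exact permutation p 0.4 at both), while that of Ly6a was kept at both (p 0.1). The exact (Clopper-Pearson) 95% intervals of SCM replicate 1, the smallest sample, were 0.337% to 3.13% for Ly6a and 0.191% to 2.68% for Il1rn, and they cover counting error only. Msln shares were 1.58%, 0.565% and 1.08% in QCM and 1.85%, 3.48% and 1.34% in SCM, which overlapped (exact permutation p 0.2). Basp1 shares were 0.132%, 0.0403% and 0.0605% in QCM and 0.309%, 0.334% and 0.135% in SCM, without overlap (exact permutation p 0.1), but at 500 UMIs the means differed by 0.0016 percentage points (exact permutation p 1) and at 2000 UMIs by 0.341 (exact permutation p 0.3). The Basp1 share of SCM replicate 1 was 1 of 324 nuclei, with an exact 95% interval of 0.00781% to 1.71%. That of SCM replicate 3 lay just above QCM replicate 1, from 14 and 5 nuclei. Without thinning the shares overlapped for all 6 members, and QCM replicate 1, the deepest sample per nucleus, had the highest share of all samples for each member but Il1rn.

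Within clusters, 13 clusters could be fitted and no member was called in any (edgeR, 0% of genes called in each). Il33 passed the count filter in no cluster, Basp1 in cluster 7 alone and Ecm1 in clusters 0 and 2. Ly6a was tested in 6 clusters (0, 1, 2, 4, 5 and 7), which all come from the same 6 libraries. In clusters 0, 1, 2 and 7 its estimate was higher in SCM, with log2 ratios of 0.97 to 1.54 and edgeR unadjusted p of 0.00399 to 0.0299. In clusters 4 and 5 (log2 ratios 1.36 and 1.56) it passed the count filter only through the SCM samples. A higher estimate in these 2 clusters was thus fixed by the filter. Genes with an unadjusted p under 0.05 and a higher estimate made up 0.568%, 0.835%, 0.938%, 1.96%, 0.648% and 3.4% of those tested in clusters 0, 1, 2, 4, 5 and 7. In cluster 2, Ly6a was at 3.15, 2.78 and 4.03 CPM in QCM, against 5.31, 10.9 and 12.2 CPM in SCM, without overlap. In cluster 7 it was at 22.2, 59.4 and 34.2 CPM in QCM and at 78.1, 110 and 46.6 CPM in SCM, with QCM replicate 2 above SCM replicate 3. The same direction was seen in the enteroendocrine-like cluster 9, at 3.92, 1.47 and 4.24 CPM in QCM and 9.33 and 14.1 CPM in SCM replicates 2 and 3. That cluster stood above as the background, and the part of free RNA in the Ly6a differences of single clusters was not tested.

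Msln and Il1rn did not differ in cluster 7 beyond the spread of samples. Msln was at 146, 390 and 303 CPM there in QCM and at 176, 347 and 162 CPM in SCM (log2 ratio -0.33, SE 0.37, edgeR unadjusted p 0.383, adjusted p 0.767). Il1rn was at 101, 49.2 and 78.9 CPM in QCM and 45.6, 130 and 89.0 CPM in SCM (log2 ratio 0.16, SE 0.36, edgeR unadjusted p 0.674, adjusted p 0.912). Basp1 was at 1.39, 11.6 and 10.5 CPM in QCM and at 58.6, 40.9 and 7.06 CPM in SCM there, from 2 to 139 UMIs, with a log2 ratio of 1.96 (SE 0.81, edgeR adjusted p 0.376). Il1rn was tested in 4 clusters and Msln in 8. Outside cluster 7, Il1rn had higher estimates in cluster 0 (log2 ratio 1.93, unadjusted p 0.00474) and cluster 9 (2.19, unadjusted p 0.0165, 5 samples), and Msln in cluster 0 (1.37, unadjusted p 0.0172) and cluster 8 (3.11, unadjusted p 0.00779). The other estimates did not reach an unadjusted p of 0.05, with 0.80 for Il1rn in cluster 1 (unadjusted p 0.188) and 0.32 to 1.34 for Msln in clusters 1, 2, 3, 6 and 9 (unadjusted p 0.0894 to 0.475). Such genes made up 0.909% of those tested in cluster 8 and 1.01% in cluster 9. The cluster 8 estimate rested on the 148 UMIs of SCM replicate 2. In cluster 9, Il1rn passed the count filter only through SCM replicates 2 and 3. A higher estimate of Il1rn in that cluster was thus fixed by the filter. Cluster 9 was part of the background above. The thinned shares of cluster 0 lay within the intervals of that background. They were 0.532% against 0.544% (0.200% to 1.18%) for Il1rn and 0.967% against 1.18% (0.630% to 2.01%) for Msln. Both are pooled over the media and do not bear on the difference between them. The part of free RNA in these log2 ratios was not tested. When no filter on low counts was used, 5 pairs of member and cluster passed the adjusted threshold, namely Il1rn in clusters 0 and 8, Ly6a in cluster 2, Basp1 in cluster 7 and Msln in cluster 8. Of all genes in those fits without a filter, 0.462% were called in cluster 0, 1.79% in cluster 2, 1.71% in cluster 7 and 0.313% in cluster 8.

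The difference between the media was set against cluster 7 directly, as the log2(CPM + 1) of cluster 7 less that of all other nuclei of the same sample. For Il1rn this excess was 4.31, 4.20 and 3.80 in QCM and 2.51, 3.34 and 3.61 in SCM, lower in each SCM sample, and its mean differed by -0.95 (two-sided exact permutation p 0.1). With a pseudocount of 5 CPM the difference was -0.52, and without cluster 14 it was -0.51, both with overlap (exact permutation p 0.2). Without the nucleus richest in Il1rn in each sample it was -0.17 (exact permutation p 0.6), with 2.82, 3.85 and 3.61 in QCM and 3.11, 3.26 and 3.38 in SCM. The level of Il1rn in the other nuclei was 4.14, 1.74 and 4.75 CPM in QCM and 7.15, 12.0 and 6.36 CPM in SCM, without overlap. Of the 28 UMIs behind the value of SCM replicate 1, 22 were in cluster 14, and without that cluster this sample was at 2.30 CPM, within the QCM range. For Msln the excess was 3.41, 6.01 and 4.88 in QCM and 3.29, 3.42 and 3.71 in SCM, which overlapped (difference -1.29, exact permutation p 0.3). For Ly6a it was 1.63, 3.34 and 2.29 in QCM and 2.50, 2.75 and 1.75 in SCM, a difference of -0.09 (exact permutation p 1), and with this spread a difference in either direction was not detectable. For Basp1 it was 1.70 higher in SCM with wide overlap (exact permutation p 0.4). For Ecm1 it was 0.97 higher (exact permutation p 0.2), and -0.24 without the nucleus richest in Ecm1 in each sample. Cluster 7 held 5.43%, 2.53% and 6.36% of the Ecm1 UMIs in QCM and 23.5%, 23.8% and 13.98% in SCM, without overlap (exact permutation p 0.1), from 2 to 25 UMIs. In SCM replicate 1 all 4 of these UMIs were in 1 nucleus, and without it the sample had 0 in cluster 7 and the media overlapped. The share of all UMIs that lay in cluster 7, which such shares also follow, was not set beside them. The level of Ecm1 within cluster 7 overlapped between the media, at 4.85, 2.90 and 9.21 CPM in QCM and 26.0, 7.35 and 6.12 CPM in SCM.

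The other lists of genes were described by their counts, of which none was called. These lists were also chosen with earlier results of these data known, so their counts are no test of a list. Of 20 other fetal and regenerative genes, 17 were tested, and 15 had a higher and 2 a lower estimate in SCM. For 10 of them the media did not overlap, all higher in SCM (4.99% of all genes), and 9 had an unadjusted p under 0.05 and a higher estimate (1.46% of all genes). Of all genes, 48.6% had a higher estimate. The median log2 ratio was 0.94, beside 1.22 for the 6 members and -0.01 for all genes tested. Anxa3, an annexin, had 21.7, 16.8 and 21.7 CPM in QCM and 49.6, 95.1 and 43.5 CPM in SCM (not called, edgeR adjusted p 0.927), and Cd44, the hyaluronan receptor, 70.9, 74.6 and 74.7 CPM in QCM and 142, 216 and 118 CPM in SCM (not called, edgeR adjusted p 0.927). Both had their highest levels in SCM replicate 2, as had Ly6a, Il1rn, Msln and Basp1.

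The relatives of the members were described in the same way. Of 14 tested genes of the Ly6 and uPAR domain family, 10 had a higher estimate and 1 an unadjusted p under 0.05, with a median log2 ratio of 0.34, and 3 were higher in SCM without overlap, beside 48.6%, 1.46% and 4.99% of all genes. Lypd6b was at 3.19, 3.34 and 3.81 CPM in QCM and 8.60, 10.3 and 3.99 CPM in SCM (not called), and Lypd8, an enterocyte protein that binds flagellated bacteria, had a log2 ratio of -0.78 with overlap. Of 15 tested ligands, receptors and adaptors of the interleukin-1 family, 11 had a higher estimate and none an unadjusted p under 0.05 (median log2 ratio 0.14). Irak2, a kinase downstream of the interleukin-1 receptor, was at 36.0, 55.3 and 48.9 CPM in QCM and 65.3, 74.0 and 58.1 CPM in SCM, without overlap, and Myd88, the adaptor of these receptors, had a log2 ratio of -0.68 with overlap. Of 7 tested relatives of mesothelin and partners of Ecm1, 3 had a higher and 4 a lower estimate, with Fbln1 at a log2 ratio of -0.61 and Mslnl at 0.98, neither called. Marcks, a membrane cytoskeleton protein akin to Basp1, was at 101, 86.3 and 98.97 CPM in QCM and 85.5, 67.8 and 85.4 CPM in SCM, lower without overlap (2.09% of all genes), with a log2 ratio of -0.44, and was not called. Of 10 tested interferon-induced genes, a class to which Ly6a also belongs, 7 had a higher estimate and none an unadjusted p under 0.05. Bst2 had a log2 ratio of -1.11 with overlap, and Irf1 was at 9.85, 8.03 and 8.43 CPM in QCM and 13.8, 12.5 and 10.5 CPM in SCM, without overlap (log2 ratio 0.28, not called).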

How the data were processed

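Single-nucleus RNA-seq counts of 3 QCM and 3 SCM samples were used. Per the labels and the study's methods, libraries were made with the 10x 3′ kit v3.1 and reads were counted by the authors with Cell Ranger (2.1.1 in the submitters' processing notes) on mm10. The authors removed nuclei that were outliers in mitochondrial fraction, reads or features, and made the clusters by Leiden clustering after Harmony. The deposited matrices hold raw UMI counts of 31319 genes, 31244 of them matched to a symbol. The deposited table of nuclei gives clusters without names. All 38154 nuclei were kept, doublets were not called, and the mitochondrial genes, Pcna, Top2a, Mki67, Foxf2 and another gene of the lists are not reported here.

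Sums of UMIs over the nuclei of a sample, or of a cluster in a sample (at least 10 nuclei), were tested in R 4.3.3 with edgeR 4.0.16 (TMM, filterByExpr at a minimum count of 10, quasi-likelihood test, Benjamini-Hochberg adjustment over all genes, threshold 0.05). DESeq2 1.42.0 and limma 3.58.1 were alternatives. The edgeR step was tested on simulated data. Quantities per sample were compared by two-sided exact permutation tests in scipy 1.17.1, with p-values not adjusted over the members. Shares were taken after thinning each nucleus to 1000 UMIs. Log values used a pseudocount of 1 CPM. A limit for a count of 0 is 3 UMIs over the pooled cluster, and such limits cover counting error only. The named genes were the 6 members, the 2 genes with the smallest unadjusted p of each other list, and for each member the 3 most alike genes over clusters. The deepest nuclei are the 6% of each sample with most UMIs. The members and lists were chosen with earlier results of these data known. The alternatives were other tools, scalings and filters, the replicate number as a block, a covariate for ribosomal protein share, each sample left out, other thinning depths and left-out sets of nuclei. Those without cluster 14, without the nucleus richest in a member, without shared barcodes and with every nucleus weighted equally were chosen after seeing the data, as were the split of cluster 7 by depth, the make-up of nuclei with a UMI of Ly6a, Il1rn or Msln, clusters 9 and 10 as background and the promoter motifs.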

Additional observations from a re-analysis of the deposited data

How the results depend on the processing

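No member was called over all nuclei under any of the 17 alternatives that were refitted. The log2 ratios of Ly6a, Il1rn, Msln and Basp1 stayed above 0 in all 19 alternatives, from 0.80 to 1.71, 0.60 to 1.98, 0.21 to 1.47 and 0.38 to 2.20. The lowest value came without the deepest 6% of nuclei for Ly6a, with clusters weighted equally for Il1rn, without SCM replicate 2 for Msln and without cluster 7 for Basp1. Leaving out single samples gave 1.01 to 1.59 for Ly6a, 0.66 to 1.69 for Il1rn, 0.21 to 1.39 for Msln and 0.79 to 2.16 for Basp1. For Il33 the log2 ratio turned to 0.016 by library size alone, 0.21 by voom and limma, 0.44 in replicates 2 and 3 alone and 1.28 with ribosomal protein share as a covariate, with -0.65 to 0.20 when single samples were left out. For Ecm1 it turned to 0.095 by library size alone, 0.012 by voom and limma, 0.31 with clusters and 0.11 with nuclei weighted equally, with -0.23 to 0.19 when single samples were left out. Without TMM factors the median over every tested gene was itself 0.14 (-0.012 with them), above the values of Il33 and Ecm1 by library size.

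Within clusters, no filter on low counts gave 5 calls of members, in 4 clusters where 0.313% to 1.79% of all genes were called, and no other alternative gave any. The difference in the share of nuclei with a UMI (SCM less QCM, percentage points) turned for Ecm1 to 0.025 at 500 UMIs and 0.0691 without thinning (-0.0857 to 0.0111 with single samples left out), for Il33 to -0.0380 at 2000 UMIs and -0.138 without thinning, and for Msln to -0.237 without thinning. The excess of cluster 7 differed between the media (log2) by 0.15 for Ly6a at a pseudocount of 5 CPM and 0.19 without cluster 14, where Il1rn was at -0.52 and -0.51 (exact permutation p 0.2 in both), by 0.31 for Ly6a, 0.30 for Il33, -0.24 for Ecm1 and -0.17 for Il1rn without the nucleus richest in the member, by -0.48 to 0.37 for Ly6a and -0.74 to 0.075 for Il33 with single samples left out, and it was higher in SCM for 2 to 4 members in those runs. The causes were not tested.

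The replicate numbers paired the samples in part. The correlations of deviations for numbers 1, 2 and 3 were 0.364, 0.462 and -0.088, against -0.463 to 0.164 between unlike numbers. With a replicate block the log2 ratios were 1.35 for Ly6a, 1.25 for Il1rn, 0.82 for Msln, 1.53 for Basp1, -0.04 for Ecm1 and 0.094 for Il33, 0 members were called over all nuclei or within clusters, and the count of genes called stayed at 0. The difference between the media in the excess of cluster 7 had an exact sign-flip p of 0.25 for Il1rn (-0.95). The same p was found for Msln (-1.29), Ecm1 (0.97) and Il33 (-0.29), and it is the smallest that 3 pairs can give. Depth limits Il33 and, outside cluster 7, Basp1, whose levels rest on few UMIs per sample. SCM replicate 1 limits every comparison within a cluster.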
